A study of Mus musculus with 4 samples.

Results

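The genes described here are 42 genes for collagens and other proteins of the extracellular matrix, together with enzymes that cut or crosslink that matrix and 3 genes typical of the cells of the meninges. They were given as a list of gene symbols and were found on the arrays as the probes whose RefSeq accession belongs to a listed gene. The list makes up 42 of the 16535 genes that could be named through an accession. Of the 42, 40 had at least 1 probe and 59 probes in all (23 genes with 1 probe, 15 with 2 and 2 with 3). No probe was named for Col6a3 or Col12a1, which are not analysed here. The genes were divided into 7 fibrillar collagens, 6 other collagens, 8 genes of the basement membrane, 5 small leucine-rich proteoglycans, 6 glycoproteins and crosslinking enzymes, 7 proteases and inhibitors, and 3 meningeal genes for growth factor and retinoid handling.

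The study measured messenger RNA in whole brain of 50-week-old mice by 2-colour microarray. The groups were SAMP8 (senescence-accelerated mouse prone 8) on a diet supplemented with WME, an extract of whale meat, SAMP8 on LSO, the low-safflower oil control diet, and SAMR1 (senescence-accelerated mouse resistant 1) on LSO. For every group the labels give AKR/J as genetic background, with a suspected outcross to a line that is not known. Diets ran for 26 weeks, beginning at 24 weeks of age, and all groups went through 8 days of behavioural tests at 49 weeks. The diet pair (WME against LSO in SAMP8) and the strain pair (SAMP8 against SAMR1 on LSO) were each hybridised on 2 arrays. The labels call the arrays of a pair a dye swap, with the SAMP8 WME or SAMP8 LSO RNA in Cy5 on the first array and in Cy3 on the second, and values below are given in that order. Each comparison therefore rests on 1 RNA per group, made from a number of mice that the labels do not state, and no difference has a replicate check or a p-value. SAMR1 is a separate inbred line, not a littermate control, so that strain and any other difference between the lines cannot be told apart.

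Fibrillar collagens, chiefly types I and III with smaller amounts of types V and XI, form the tensile fibres of connective tissue. In brain such fibres are sparse in the tissue itself, and their genes are mainly expressed by fibroblasts of the meninges and of the spaces around larger vessels. Basement membranes, built from type IV collagen, laminins and nidogen, surround the brain's vessels and its outer surface and are made by endothelial cells, mural cells and astrocytes as well as by fibroblasts.

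A log2 ratio below is SAMP8 over SAMR1 or WME over LSO. Each gene was represented by its brightest probe and was called higher or lower where both arrays put it past 1.5-fold on the same side. It counted as measured where at least 1 RNA of the pair was well above background on both arrays. The ± value is the SD of the 2 arrays of a pair, a technical error that also holds the dye bias which their mean cancels. Log2 intensities of the RNAs come from the same 2 arrays as the ratios. Levels that do not overlap are therefore no further support for a difference, and the share of all genes with such levels is not given. On each array 43379 probe spots were read, 81.4% to 85.6% of them lay well above background, 0 were saturated, and 4 arrays in all limit the precision. All 40 genes with a probe were measured in both pairs, with 58 of 59 probes in the strain pair and 57 in the diet pair, and 56 of the probes in the strain pair were above background in both RNAs on both arrays. Whole brain markers such as Snap25, Gad1, Mbp and Gfap were measured in both pairs (13 of 13 genes).

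The comparison of strains set SAMP8 brain against SAMR1 brain on the same diet. Of 40 measured genes, 6 were called higher in SAMP8, beside 0.969% of all 26939 measured genes, and 1 was called lower, beside 0.494%. Only 14777 of those 26939 are named genes, as all 40 are, and the rest are unnamed transcripts. Shares over named genes alone are not given here. The genes called higher were the collagen genes Col3a1, Col1a1 and Col1a2, the proteoglycan genes Fmod and Ogn, and Adamts2, for an enzyme that trims the amino end of fibrillar procollagens. The gene called lower was Timp3, an inhibitor of metalloproteinases that is bound to the matrix. With the median over the probes of a gene 3 were called higher and 1 lower. The genes that stayed called, Col1a2, Fmod, Ogn and Timp3, have 1 probe each, so this choice could not change them. Of the 40 genes, 30 had a ratio above 0 on both arrays, beside 23.9% of all genes, and 2 had a ratio below 0 on both, beside 26.7%. The median log2 ratio was 0.22 over the 40 genes, beside −0.007 over all measured genes. Because the RNA came from whole brain, more cells of a type and more RNA per cell cannot be told apart.

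**Figure D1:**
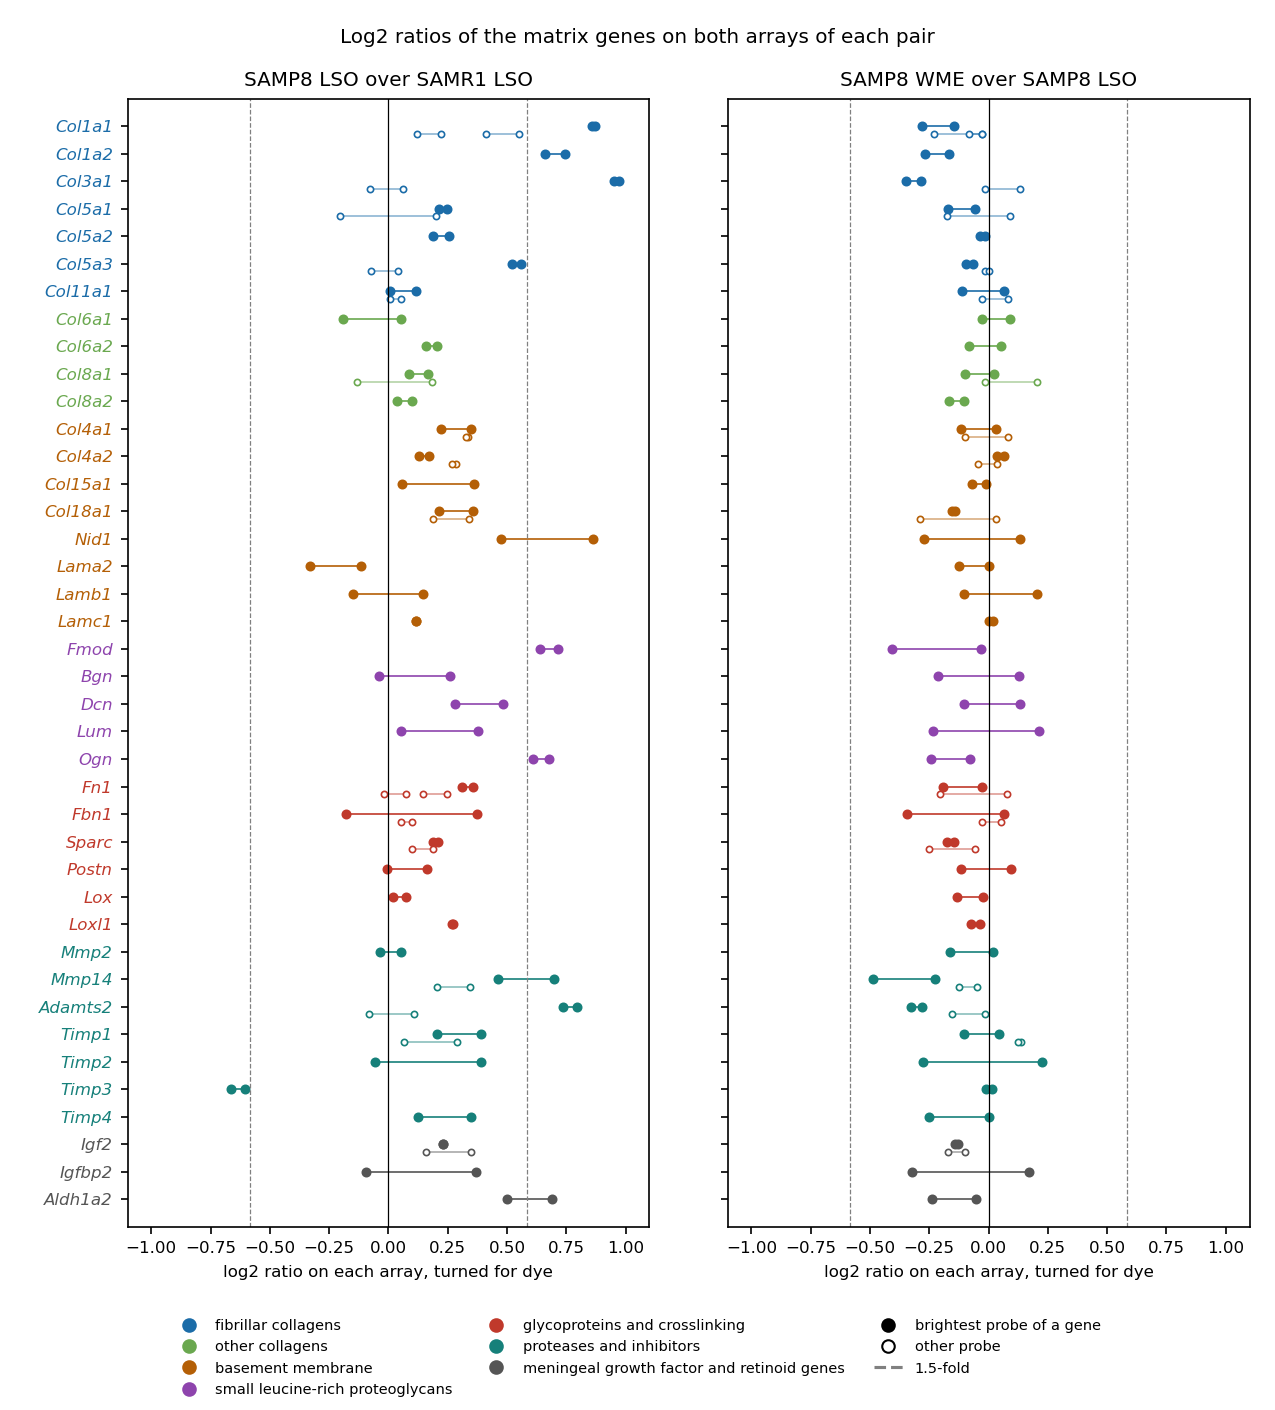
Log2 ratio of each matrix gene on both arrays of the strain pair (left, SAMP8 LSO over SAMR1 LSO) and of the diet pair (right, SAMP8 WME over SAMP8 LSO). Filled points are the brightest probe of a gene on each array, open points its other probes, lines join the arrays of a probe, colours mark the gene classes and dashed lines stand at 1.5-fold. In the strain pair 6 genes lie to the right of the upper line and Timp3 to the left of the lower one on both arrays, and in the diet pair no gene passes either line.

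The fibrillar collagens had a class median of 0.54 in the strain pair, or 0.26 with the median over the probes of a gene, and 7 of 7 were above 0 on both arrays. Col3a1, which encodes the single chain of type III collagen, had normalized log2 intensities of 9.50 and 9.62 in SAMP8, against 8.53 and 8.67 in SAMR1. Its log2 ratios were 0.97 and 0.95 (mean 0.96 ± 0.02, 1.95-fold). Both SAMP8 values stood above both SAMR1 values. Col1a1, for the alpha 1 chain of type I collagen, had 10.06 and 9.97 in SAMP8, against 9.20 and 9.10 in SAMR1, a ratio of 0.86 on one array and 0.87 on the other (1.82-fold). Col1a2, for the alpha 2 chain of the same trimer, had 12.35 and 12.31 in SAMP8, against 11.69 and 11.57 in SAMR1, with ratios of 0.66 and 0.75 (1.63-fold). The levels of the RNAs did not overlap for either chain, and the genes of both chains were called.

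The type V and XI collagens, which start and limit the growth of fibrils, had smaller ratios. Col5a3 was nearest to the threshold, with log2 intensities of 8.95 and 8.88 in SAMP8, against 8.39 and 8.36 in SAMR1, and ratios of 0.56 and 0.52. It was called with the scanner program's processed signals, where its mean ratio was 0.62. Col5a1 (0.23 ± 0.02), Col5a2 (0.22 ± 0.05) and Col11a1 (0.06 ± 0.08) were not called. The normalized intensities of the 7 fibrillar genes summed to 8653 and 8477 in SAMP8, against 5606 and 5359 in SAMR1. Such sums, here and below, weigh bright probes most, in this class that of Col1a2.

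Several of these genes had further probes that gave a smaller ratio. For Col3a1 the dimmer probe had ratios of 0.06 and −0.08, and its levels in the RNAs overlapped. For Col1a1 the other probes had ratios of 0.55 and 0.41 on the one and 0.22 and 0.12 on the other, and the dimmest was above background in SAMR1 on 1 of 2 arrays. The other Col5a3 probe had ratios of −0.07 and 0.04. Outside the fibrillar collagens the other Adamts2 probe, at 0.11 and −0.08, was the remaining case in which probes of a gene differed by 0.5 or more. Of 16 genes with more than 1 measured probe in the strain pair, 4 differed by that much, and the brightest probe had the largest ratio in size in 13. With the median over the probes of a gene in place of the brightest, Col1a1 (0.48), Col3a1 (0.48) and Adamts2 (0.39) were no longer called. No called gene with more than 1 probe kept its call. The dimmer probes of Col3a1, Col5a3 and Adamts2 had log2 intensities between 6.8 and 7.1. The offset added in background correction pulls ratios of dim probes towards 0, and its part in these smaller ratios was not tested.

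The promoters of Col1a2 and Col3a1 are shown because both genes were called higher in SAMP8 while the windows differ in base composition and motifs. Each window is 300 bases long and begins 250 bases before the annotated start (position 0), on the plus strand of RefSeq assembly GRCm38.p6, at chr6:4505368-4505667 for Col1a2 and chr1:45311288-45311587 for Col3a1. Capitals mark 3 motifs sought on both strands, and no marked motif overlaps another. The CCAAT box was sought as CCAAT or, on the opposite strand, as ATTGG. The GC box was sought as GGGCGG, which reads CCGCCC when it lies on the opposite strand. The TATA box was sought as TATAAA, and its opposite strand reads TTTATA.
Col1a2: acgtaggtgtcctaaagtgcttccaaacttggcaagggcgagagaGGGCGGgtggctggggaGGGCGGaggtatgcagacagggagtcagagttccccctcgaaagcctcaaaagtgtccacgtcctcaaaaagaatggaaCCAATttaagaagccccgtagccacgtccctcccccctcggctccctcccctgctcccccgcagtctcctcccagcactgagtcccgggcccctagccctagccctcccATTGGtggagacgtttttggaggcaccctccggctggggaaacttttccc
Col3a1: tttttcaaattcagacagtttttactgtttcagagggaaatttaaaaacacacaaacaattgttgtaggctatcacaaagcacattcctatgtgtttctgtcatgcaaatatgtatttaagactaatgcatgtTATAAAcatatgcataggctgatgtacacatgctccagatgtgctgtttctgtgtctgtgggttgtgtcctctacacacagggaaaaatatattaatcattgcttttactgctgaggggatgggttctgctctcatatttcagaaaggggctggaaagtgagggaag
The Col1a2 window had 61.0% G and C, 2 CCAAT boxes, at positions −109 and 0 from the start, and 2 GC boxes, at −205 and −188. The Col3a1 window had 37.7% G and C and 1 TATA box at −117. The median over all windows was 52.7% G and C.

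The other collagens had a class median of 0.10 in the strain pair with 0 of 4 called, and 3 of 4 were above 0 on both arrays. Col6a2, for a chain of the beaded type VI microfibrils, had log2 intensities of 8.81 and 9.15 in SAMP8, against 8.60 and 8.99 in SAMR1, with ratios of 0.21 and 0.16. The arrays differed more than the RNAs did for this gene. Col8a1, for a short-chain collagen of vessel walls, had 10.89 and 10.72 in SAMP8, against 10.73 and 10.63 in SAMR1, with ratios of 0.17 and 0.09. Col8a2, for the partner chain of type VIII, stood at 0.07 ± 0.05, and Col6a1 at −0.07 ± 0.18.

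Among the basement membrane genes 0 of 8 were called, 6 were above 0 on both arrays and the class median was 0.18. Nid1, for the nidogen that links laminin to type IV collagen, had log2 intensities of 10.67 and 10.35 in SAMP8, against 9.81 and 9.88 in SAMR1. Its ratios were 0.86 and 0.48, past 1.5-fold on 1 array, and the SAMP8 levels stood above the SAMR1 levels. Col18a1, whose product is the source of endostatin, had 10.96 and 10.84 in SAMP8, against 10.60 and 10.63 in SAMR1, with ratios of 0.36 and 0.22 and a second probe at 0.27. The chains of the type IV network, Col4a1 (0.28 ± 0.09, other probe 0.33) and Col4a2 (0.15 ± 0.03, other probe 0.28), were both on the same side of 0. Col15a1, a relative of Col18a1, stood at 0.21 ± 0.21. The laminin genes did not share a sign: Lamc1 for the gamma 1 chain was at 0.12 ± 0.001, Lamb1 for the beta 1 chain at −0.003 ± 0.21 and Lama2 for the alpha 2 chain at −0.22 ± 0.15.

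The small leucine-rich proteoglycans bind collagen fibrils and set their diameter and spacing. Their class median was 0.38, 2 of 5 were called higher in SAMP8 and 4 of 5 were above 0 on both arrays. Fmod, for fibromodulin, had log2 intensities of 10.32 and 10.54 in SAMP8, against 9.68 and 9.83 in SAMR1, with ratios of 0.64 and 0.71 (1.60-fold). Ogn, for osteoglycin, had 11.27 and 11.20 in SAMP8, against 10.59 and 10.59 in SAMR1, with ratios of 0.68 and 0.61 (1.56-fold). The RNAs did not overlap for either gene, but Ogn was not called under median centring of the arrays, at 0.60. Decorin (Dcn), at 0.38 ± 0.14, and lumican (Lum), at 0.21 ± 0.23, were above 0 on both arrays and were not called. Biglycan (Bgn) was at 0.11 ± 0.21.

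The glycoproteins and crosslinking enzymes had a class median of 0.15, with 4 of 6 above 0 on both arrays and 0 called. Fn1, for fibronectin, to which cells attach through integrins, had log2 intensities of 8.47 and 8.42 in SAMP8, against 8.11 on both arrays in SAMR1. Its ratios were 0.36 and 0.31, and its other probes stood at 0.20 and 0.03. Loxl1, for an enzyme that crosslinks elastin, had 9.32 and 9.34 in SAMP8, against 9.06 and 9.06 in SAMR1, with ratios of 0.27 on both arrays. These genes had separate levels in the RNAs at folds below the threshold. Sparc, a collagen-binding protein also made by glia and endothelium, was at 0.20 ± 0.01 (other probe 0.14), and Fbn1 for the microfibril protein fibrillin-1 at 0.10 ± 0.39. Postn, for periostin, at 0.08 ± 0.12, and Lox, for the lysyl oxidase that crosslinks collagen, at 0.05 ± 0.04, lay near 0.

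Proteases and their inhibitors had a class median of 0.24 and members called in both directions. Adamts2 had log2 intensities of 9.45 and 9.33 in SAMP8, against 8.65 and 8.59 in SAMR1, with ratios of 0.80 and 0.74 (1.70-fold). Timp3 had 13.54 and 13.52 in SAMP8, against 14.20 and 14.12 in SAMR1, with ratios of −0.66 and −0.60 (0.645-fold). For both genes the levels of the RNAs were separate, in opposite directions. Mmp14, for a membrane-bound metalloproteinase that cleaves fibrillar collagen, had 11.46 and 11.32 in SAMP8, against 10.76 and 10.86 in SAMR1, with ratios of 0.70 and 0.46. It passed 1.5-fold on 1 array, and its other probe stood at 0.27. Timp3 was the only one of the 4 inhibitors with a ratio below 0 on both arrays. Timp1 (0.30 ± 0.13) and Timp4 (0.24 ± 0.16) were above 0 on both arrays and Timp2 (0.17 ± 0.32) on 1, and Mmp2, for a gelatinase, was at 0.01 ± 0.06.

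The promoters of Adamts2 and Timp3 are shown because these genes were called in opposite directions. They lie on the plus strand of GRCm38.p6, at chr11:50601835-50602134 for Adamts2 and chr10:86300162-86300461 for Timp3, and the capitals mark the same letters as above.
Adamts2: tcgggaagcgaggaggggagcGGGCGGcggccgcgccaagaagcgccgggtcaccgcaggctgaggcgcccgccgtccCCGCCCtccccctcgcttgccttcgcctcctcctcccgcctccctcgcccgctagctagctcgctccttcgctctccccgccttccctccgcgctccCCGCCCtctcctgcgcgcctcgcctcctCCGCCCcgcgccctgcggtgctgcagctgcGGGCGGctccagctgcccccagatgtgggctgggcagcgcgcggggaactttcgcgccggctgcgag
Timp3: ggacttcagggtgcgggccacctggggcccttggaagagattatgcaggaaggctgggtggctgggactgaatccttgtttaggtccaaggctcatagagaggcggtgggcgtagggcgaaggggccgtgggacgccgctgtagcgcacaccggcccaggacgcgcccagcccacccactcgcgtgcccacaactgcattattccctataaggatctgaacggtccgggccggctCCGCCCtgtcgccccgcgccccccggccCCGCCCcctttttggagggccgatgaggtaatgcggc
The Adamts2 window had 77.3% G and C and 5 GC boxes, and the Timp3 window had 67.0% G and C and 2 GC boxes. Neither held a CCAAT or TATA box. Among 39 windows of 32 matrix genes the GC box was found in 61.5%, the CCAAT box in 38.5% and the TATA box in 7.69%. Among all 32851 windows the shares were 35.7%, 37.4% and 13.6%. A match describes the letters in these windows and does not show that a factor binds there.

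The meningeal genes for growth factor and retinoid handling were Igf2, for insulin-like growth factor 2, Igfbp2, for a binding protein of that factor, and Aldh1a2, for the enzyme that makes retinoic acid. In adult mouse brain Aldh1a2 and Igf2 are expressed chiefly in the meninges, Igf2 and Igfbp2 also in the choroid plexus, and Igfbp2 in astrocytes as well. Aldh1a2 had log2 intensities of 11.84 and 11.76 in SAMP8, against 11.15 and 11.27 in SAMR1, with ratios of 0.69 and 0.50, past 1.5-fold on 1 array. Igf2 had 13.29 and 13.30 in SAMP8, against 13.06 and 13.07 in SAMR1, with ratios of 0.23 on both arrays and a second probe at 0.25. Igfbp2 was at 0.14 ± 0.33 with ratios on either side of 0. For Aldh1a2 and Igf2 the RNAs did not overlap, though neither gene was called.

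**Figure D2:**
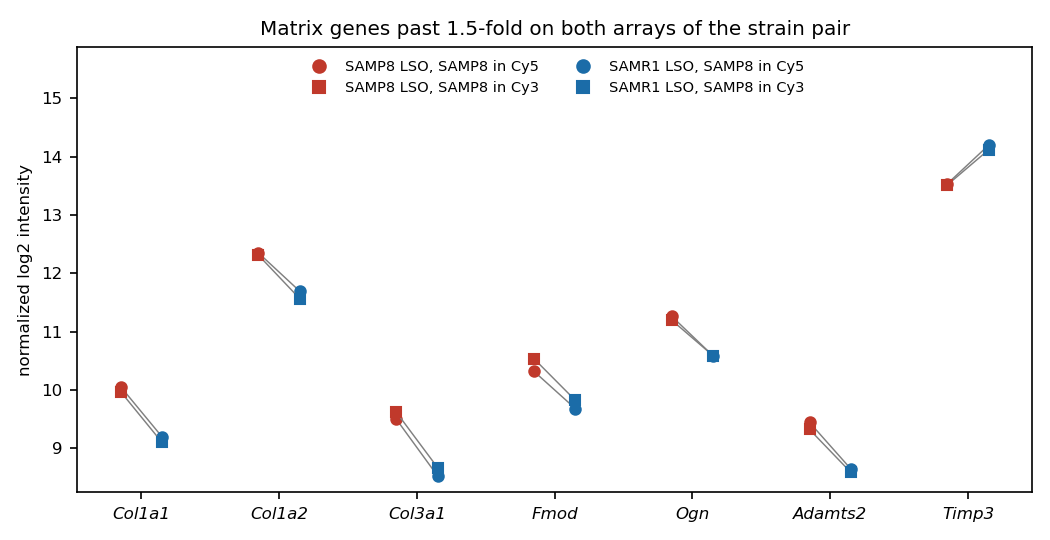
Normalized log2 intensity of the 7 matrix genes called in the strain pair, in the SAMP8 LSO RNA (red, left of each pair of points) and the SAMR1 LSO RNA (blue, right). Circles are the array with SAMP8 in Cy5, squares the array with SAMP8 in Cy3, and lines join the RNAs of 1 array. For 6 genes both SAMP8 points stand above both SAMR1 points, and for Timp3 both stand below. Heights are not comparable between genes.

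Genes that act on or with this matrix but are not among the 42 were described from lists written for the same purpose. Those lists, like the ones of cell type markers below, were written with earlier results of these data known. Over all measured genes of the strain pair, 0.969% were called higher and 0.494% lower. On both arrays 23.9% lay above 0 and 26.7% below. Among collagen and laminin receptors 2 of 20 measured genes were called higher in SAMP8, the collagen-binding integrin gene Itga11 (1.00 and 0.80, mean 0.90 ± 0.14) and Ddr2, a receptor kinase for fibrillar collagen (0.74 and 0.67, mean 0.71 ± 0.05), and the list's median was 0.06. Of 19 other collagens 1 was called, Col9a2 of the cartilage type IX (0.72 and 0.74), and the median was 0.06. The lowest of them was Col11a2 (−0.49). Of 21 genes for collagen processing 0 were called, the median was 0.03 and the largest ratio was that of Pcolce, an enhancer of procollagen trimming (0.51 ± 0.01). The medians of these 3 lists stood at 0.06 or less, beside 0.54 for the fibrillar collagens.

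Other matrix lists lay close to all genes. The medians were 0.03 for 11 further laminin and basement membrane genes (Lama4 0.28 ± 0.09), −0.06 for 12 lecticans and genes of perineuronal nets, the matrix of the brain tissue itself (Tnc 0.31 ± 0.09), and −0.01 for 18 further metalloproteinases and ADAMTS genes (Adamts1 0.39 ± 0.10). They were 0.07 for 19 genes of the TGF-beta axis (Ltbp2 0.54 ± 0.24), −0.01 for 11 genes of the insulin-like growth factor system, where it was 0.03 with both RNAs above background (Igf1r −0.15 ± 0.05) and −0.05 for 10 genes of retinoid handling (Cyp26b1 0.54 ± 0.43). In each of these lists 0 genes were called.

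Markers of cell types that make or surround the matrix were read in the same way. Of 22 meningeal fibroblast markers outside the 42 genes, 19 were above 0 on both arrays and 1 was below, the median was 0.34 and 1 was called higher in SAMP8, the transporter gene Slc47a1 (0.96 and 1.16, mean 1.06 ± 0.14, other probe 0.85). Their normalized intensities summed to 211968 and 146165 in SAMP8, against 123383 and 215099 in SAMR1, so the sums overlapped and were higher for either RNA in Cy5. Of 11 mural markers, 9 were above 0 and 3 were called higher, Kcnj8 (0.96 ± 0.02), Pdgfrb (0.86 ± 0.21) and Rgs5 (0.83 ± 0.16), with sums of 41433 and 43034 in SAMP8, against 31999 and 32089 in SAMR1. Of 11 endothelial markers, 10 were above 0 and 0 were called (median 0.23, Pecam1 0.44 ± 0.01), with sums of 39066 and 42026 in SAMP8, against 35205 and 33760 in SAMR1. The part of these markers in the collagen values was not tested.

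Markers of blood and choroid plexus also differed between the strains. All 7 measured blood cell markers were above 0 (median 0.43), with S100a9 (1.31 ± 0.06) and S100a8 (1.11 ± 0.02) called higher and sums of 47383 and 46936 in SAMP8, against 34438 and 35274 in SAMR1. The blood median was 0.63 with offset 16 and 1.02 with processed signals. Of 8 choroid plexus markers, 7 were below 0 on both arrays and 0 above (median −0.16, Aqp1 −0.55 ± 0.30), with sums of 47683 and 45220 in SAMP8, against 51890 and 51706 in SAMR1. Of 10 bone and cartilage markers, Ibsp, Matn1 and Matn3 were not well above background, and the 7 measured ones had a median of 0.13, or −0.007 and 0.04 on single arrays, and sums of 2644 and 2733 in SAMP8, against 2579 and 2332 in SAMR1 (Cnmd 0.35 ± 0.004). Of 8 skeletal muscle markers, 3 were above 0 on both arrays (median 0.06, Myh1 0.44 ± 0.05), with sums of 2867 and 2900 in SAMP8, against 2725 and 2786 in SAMR1. The part of these cells in the matrix values was not tested. The median of the whole brain markers was 0.003 (Gfap 0.55 ± 0.22).

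**Figure D3:**
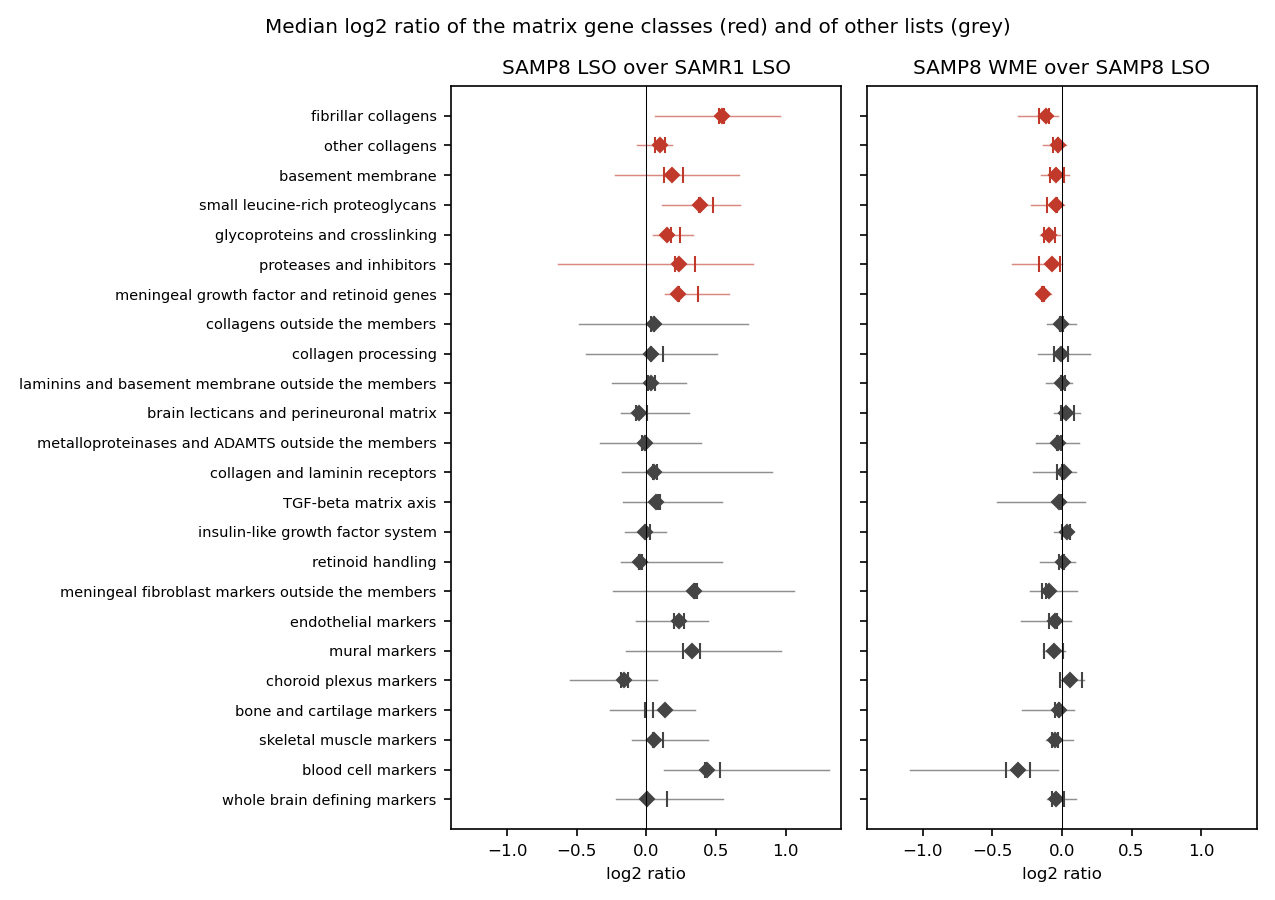
Median log2 ratio of the 7 matrix gene classes (red) and of 17 further gene lists (grey) in the strain pair (left, SAMP8 LSO over SAMR1 LSO) and the diet pair (right, SAMP8 WME over SAMP8 LSO). Diamonds are medians of the mean ratios, ticks the medians on single arrays, and horizontal lines run between the lowest and the highest gene. In the strain pair the fibrillar collagens have a median of 0.54 and the choroid plexus markers one of −0.16. In the diet pair the 7 matrix classes lie between −0.14 and −0.03. Under median centring 5 of the 7 were above 0 in the diet pair, where the median of all genes was 0.07.

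The comparison of diets asked how WME changed the brain transcripts of SAMP8. No matrix gene was called in the diet pair: 0 of 40 were higher with WME, beside 0.0562% of all 26667 measured genes, and 0 were lower, beside 0.0300%. Of those 26667, 14690 are named genes and the rest unnamed transcripts. No gene passed 1.5-fold on even 1 array. The ratios ran between −0.36 (Mmp14) and 0.05 (Lamb1), with a median of −0.07 beside 0.004 over all genes, and under median centring of the arrays both medians were above 0, at 0.02 for the 40 genes and 0.07 for all genes. Of the 40, 2 were above 0 on both arrays, beside 20.5% of all genes, 19 were below 0 on both, beside 17.6%, and 19 had ratios on either side of 0. Under median centring 10 were above 0 on both arrays and 12 below. The SAMP8 LSO RNA is the denominator here and the numerator in the strain pair, so its own error enters both with opposite signs, and the values of the pairs are set side by side without a test.

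**Figure D4:**
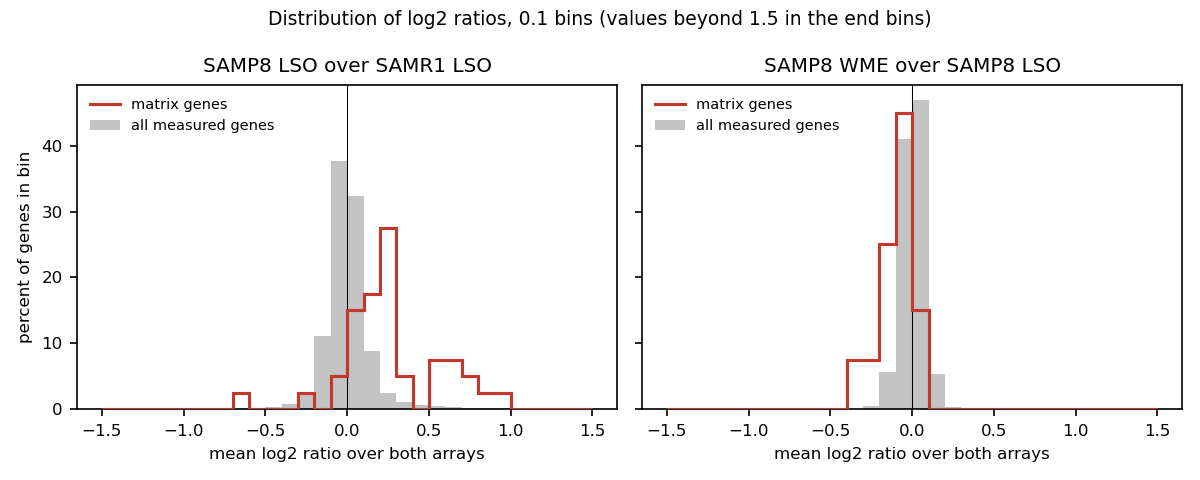
Distribution of the mean log2 ratio over the 40 measured matrix genes (red outline) and all measured genes (grey), as percent of genes in bins of 0.1, in the strain pair (left, SAMP8 LSO over SAMR1 LSO) and the diet pair (right, SAMP8 WME over SAMP8 LSO). Values beyond 1.5 are in the end bins. The matrix genes have a median of 0.22 in the strain pair and of −0.07 in the diet pair, beside −0.007 and 0.004 for all genes. Under median centring the diet median of the matrix genes was 0.02, beside 0.07 for all genes.

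The fibrillar collagens had a median of −0.11 in the diet pair, and 6 of 7 were below 0 on both arrays. Col3a1 had log2 intensities of 9.13 and 9.16 with WME, against 9.48 and 9.44 with LSO, and ratios of −0.35 and −0.29 (mean −0.32 ± 0.05). Col1a2 had 12.06 and 12.16 with WME, against 12.33 and 12.32 with LSO, and ratios of −0.27 and −0.17. Col1a1 stood at −0.21 ± 0.09. For each of these 3 genes both WME values lay below both LSO values, at folds short of the threshold. The others were Col5a1 (−0.11 ± 0.08), Col5a3 (−0.08 ± 0.02), Col5a2 (−0.03 ± 0.02) and Col11a1 (−0.02 ± 0.12), and the other probe of Col3a1 lay at 0.13 and −0.01. The intensities of the 7 genes summed to 7279 and 7460 with WME, against 8430 and 8432 with LSO. Under median centring the class median was −0.08, beside 0.07 over all genes, and 4 of 7 were below 0 on both arrays. Col3a1 then stood at −0.24, Col1a1 at −0.10 and Col1a2 at −0.04.

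No other collagen and no basement membrane gene was called between the diets. Col8a2 had log2 intensities of 8.70 and 8.66 with WME, against 8.81 and 8.83 with LSO, and ratios of −0.10 and −0.17. Col8a1 had ratios of 0.02 and −0.10, and Col6a1 and Col6a2 also had ratios on either side of 0. Col18a1 had 10.78 and 10.74 with WME, against 10.93 and 10.88 with LSO, and ratios of −0.15 and −0.14. The WME values of both genes lay below the LSO values, but the mean ratio of Col18a1 was 0.002 under median centring. Nid1, at 0.13 and −0.27, and the other 6 basement membrane genes lay between −0.07 and 0.05, and the class median was −0.04, or 0.08 under median centring.

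Of the proteoglycans, Fmod had log2 intensities of 10.09 and 10.30 with WME, against 10.50 and 10.34 with LSO, and ratios of −0.41 and −0.03. Ogn had 11.08 and 11.03 with WME, against 11.15 and 11.28 with LSO, and ratios of −0.08 and −0.24. Both ratios were below 0 on both arrays and differed in size between them, and under median centring Fmod stood at −0.09 and Ogn at −0.002. Dcn, Lum and Bgn had ratios on either side of 0 and means of 0.01, −0.01 and −0.04, or 0.21, 0.11 and 0.04 under median centring. Sparc had 15.74 and 15.60 with WME, against 15.88 and 15.78 with LSO, and ratios of −0.14 and −0.17, with its other probe on the same side of 0 and a mean of 0.08 under median centring. Fbn1 had ratios of 0.06 and −0.34, and the other glycoproteins and crosslinking enzymes lay between −0.11 (Fn1) and −0.01 (Postn), with Lox at −0.08 and Loxl1 at −0.06.

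Mmp14 and Adamts2 also lay below 0 on both arrays. The log2 intensities of Mmp14 were 11.11 and 10.94 with WME, against 11.34 and 11.43 with LSO, and its ratios were −0.23 and −0.49 (mean −0.36 ± 0.19). Adamts2 had 9.10 on both arrays with WME, against 9.38 and 9.43 with LSO, and ratios of −0.28 and −0.33. For both enzymes the WME values lay below the LSO values on both arrays without reaching 1.5-fold, and under median centring the means were −0.20 for Mmp14 and −0.23 for Adamts2. Timp3 had ratios of 0.01 and −0.01, with a mean of 0.20 under median centring, and the other inhibitors and Mmp2 had ratios on either side of 0, with Timp4 at −0.12 and the rest between −0.07 and −0.03. Aldh1a2 had 11.73 and 11.61 with WME, against 11.78 and 11.85 with LSO, and ratios of −0.05 and −0.24. Igf2 had 13.19 and 13.16 with WME, against 13.33 and 13.29 with LSO, and ratios of −0.14 and −0.13, and Igfbp2 was at −0.08 ± 0.35. Under median centring Aldh1a2 stood at 0.03 and Igf2 at 0.06. Both were then above 0 but not above the median of all genes, which was 0.07.

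Set side by side, the 7 genes called in the strain pair had these mean ratios for WME over LSO and for SAMP8 over SAMR1. Col3a1 stood at −0.32 and 0.96, Col1a1 at −0.21 and 0.86, and Col1a2 at −0.22 and 0.70. Adamts2 stood at −0.30 and 0.77, Fmod at −0.22 and 0.68, and Ogn at −0.16 and 0.64. Timp3, the gene lower in SAMP8, stood at 0.001 and −0.63. Under median centring the diet ratios of the other 6 lay between −0.24 (Col3a1) and −0.002 (Ogn), and that of Timp3 was 0.20. As the SAMP8 LSO RNA is common to both ratios, an unusually high collagen level in that RNA alone and a separate effect of the diet cannot be told apart.

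Other lists in the diet pair showed called genes among blood markers. S100a9 (−1.13 and −1.05) and S100a8 (−0.88 and −0.72) were called lower with WME, 6 of 7 blood markers were below 0 on both arrays (median −0.32, or −0.45 with offset 16 and −1.26 with processed signals), and their sums were 39830 and 37284 with WME, against 41977 and 45904 with LSO. Of 22 meningeal fibroblast markers outside the 42 genes, 11 were below 0 on both arrays and 3 above (median −0.09, Ranbp3l −0.23 ± 0.14), with sums of 197928 and 121904 with WME, against 133961 and 211199 with LSO. Under median centring 3 of these markers were below 0 on both arrays and 4 above. Their median was then −0.02, beside 0.07 over all genes. The mural (−0.06, Pdgfrb −0.13 ± 0.07) and endothelial (−0.05, Cldn5 −0.29 ± 0.44) medians were below 0, though at 0.05 and 0.08 under median centring, and each list had 0 called. The choroid plexus median was 0.06 (Aqp1 0.16 ± 0.26), −0.02 without the first array and 0.24 under median centring, also with 0 called. Bone and cartilage (−0.02, Comp −0.28 ± 0.37), skeletal muscle (−0.05, Myh1 −0.11 ± 0.02) and whole brain markers (−0.04, or 0.20 under median centring, Slc1a3 −0.11 ± 0.28) also had 0 called. The part of these cells in the matrix values was not tested. In the other matrix, receptor and growth factor lists 0 genes were called, the medians lay between −0.03 and 0.04 (between −0.003 and 0.18 under median centring), and the largest ratio in size was that of the matricellular gene Ccn1 (−0.46 ± 0.28).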

How the data were processed

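The deposited scanner files, written by Agilent Feature Extraction 11.0.1.1 as the submitters' processing notes also say, hold the intensity of each spot. Per the file headers, its median and local background are uncorrected, whereas the processed intensity had background subtracted and the dyes normalized by that program. The deposited series table holds log2 ratios of red over green processed signal (largest difference 5e-09), not turned for the dye swap, and its column medians ran between −0.018 and 0.017. Flags were used as deposited.

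From the raw medians, normexp (offset 50) and loess with control spots at weight 0 were run in limma 3.58.1 (R 4.3.3). Outlier spots (105 to 123 per array) were left out, spots of a probe averaged and ratios turned for dye. The offset pulls ratios of dim probes towards 0. Intensities per RNA were scaled between arrays by Aquantile. Of 41174 probes, 23374 were named by RefSeq accession through the GRCm38.p6 gene table, and an unnamed transcript counted as a gene of its own. The arrays' annotation names another build, so that table gave only names and gene order. Promoter windows are RefSeq's, and the motifs were sought on both strands.

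The matrix genes, the other lists and the alternatives were chosen with earlier results of these data known. Values on both arrays are given for called genes, for the 2 genes per class with the largest ratio in each pair and for genes whose probes differed by 0.5 or more. Of genes outside the 42, up to 3 called per list were named, or 1 where none was called. Timp3 in the diet pair, Mmp14 and Col11a2 in the strain pair and second probes elsewhere were added after their values were seen. All arrays lay on 1 slide. The steps were tested on simulated data.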

Additional observations from a re-analysis of the deposited data

How the results depend on the processing

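In the strain pair 7 genes were called, against 4 with the median over probes (Col1a1, Col3a1 and Adamts2 lost), 0 at 2-fold, 6 under median centring, 8 with processed signals, and 7 to 10 on single arrays, where Nid1, Mmp14 and Aldh1a2 passed on the array with SAMP8 in Cy5. Without background correction, with offset 16 or with both RNAs above background it stayed at 7. The 4 genes kept with the median over probes have 1 probe each, so that setting could not change them. The count in the diet pair was 0 in every alternative run. Strain medians moved as follows. The fibrillar collagens stood at 0.62 with processed signals, 0.59 with offset 16 and 0.26 with the median over probes, the glycoproteins at 0.20 with processed signals and 0.10 under median centring, and the proteoglycans at 0.30 under median centring. On single arrays the proteoglycans stood between 0.38 and 0.48, proteases and inhibitors between 0.20 and 0.35, the meningeal genes between 0.23 and 0.37 and the glycoproteins between 0.18 and 0.24. Diet medians moved with processed signals to −0.19 for fibrillar collagens and −0.15 for glycoproteins. Under median centring, which moved the median of all genes to 0.07, they stood at 0.073 for the other collagens, 0.077 for the basement membrane and 0.043 for proteoglycans. The glycoproteins then stood at −0.041, proteases and inhibitors at 0.054 and the meningeal genes at 0.06. The sign of 5 of 7 classes in the diet pair thus depended on this choice. Less the median of all genes, the other collagens stood at 0.007 and the basement membrane at 0.011. Proteoglycans stood at −0.023, proteases and inhibitors at −0.012 and the meningeal genes at −0.007, each below all genes. The other collagens stood at 0.006 with the median over probes. On single arrays the diet medians were −0.17 to −0.10 for fibrillar collagens, −0.063 to −0.031 for the other collagens, −0.10 to −0.034 for proteoglycans, −0.13 to −0.052 for glycoproteins, −0.16 to −0.012 for proteases and inhibitors and −0.087 to 0.017 for the basement membrane, whose direction changed. The causes of these moves were not tested. Leaving out an array also brings back the dye bias of each probe. No paired analysis was possible because each pair of RNAs is 1 replicate and the 2 arrays of a pair differ in dye. The probe of Lox is dim, and the offset pulls ratios of dim probes towards 0. Its strain ratio was 0.05 in the main run, 0.06 without background correction and 0.21 with processed signals. The part of the offset in these values was not tested.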

Other observations

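Some matrix genes are neighbours in the genome, and their ratios in the strain pair were set beside each other. On chromosome 1, Col3a1 (0.96) lies next to Col5a2 (0.22). On chromosome 10, Dcn (0.38) lies next to Lum (0.21) and Col6a2 (0.18) next to Col6a1 (−0.07), and on chromosome 8, Col4a1 (0.28) lies next to Col4a2 (0.15). Their diet ratios were −0.32 and −0.03 for Col3a1 and Col5a2, 0.01 and −0.01 for Dcn and Lum, −0.02 and 0.03 for Col6a2 and Col6a1, and −0.04 and 0.05 for Col4a1 and Col4a2. Of each of these 4 pairs of neighbours, at most 1 gene was called.

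Around the 7 genes called in the strain pair, the 5 nearest measured genes on each side were also read. Of these 70 neighbours, 0 were called at 1.5-fold on both arrays, beside 0.969% of all genes called higher and 0.494% called lower, so a count of 0 in 70 is near the background. The highest ratio beside Ogn was 0.47, that of Omd, for osteomodulin, another small leucine-rich proteoglycan, and the highest beside Fmod was 0.33, that of Prelp, a proteoglycan of the same family. The medians over the 10 neighbours of a gene ran between −0.06 beside Adamts2 and 0.08 beside Ogn, and Timp3, the gene lower in SAMP8, had neighbours with a median of 0.009. These counts are values of 1 RNA per strain.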
